A study of Homo sapiens with 12 samples.

Results

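The genes described here are 34 genes of glycolysis and of the response to low oxygen, out of 55771 genes in the deposited table. They were chosen by name, as rows of the table whose symbol is a glucose transporter, a glycolytic enzyme, a regulatory kinase or a gene that low oxygen is known to induce. All 34 symbols had a row. Of these, 33 reached a normalized count of 10 in 4 or more of the 12 libraries and were tested, and ADM, the gene of the peptide hormone adrenomedullin, was below that level. The cells were KELLY, a human neuroblastoma cell line in long use, in which the oncogene MYCN is amplified. Each of the groups BPS2, BPS1 and control oligonucleotide held 4 libraries of total RNA. All 3 groups received a morpholino, an uncharged antisense oligonucleotide, paired with a DNA leash and carried by lipid, at 50 nM for 48 h. The cells had been plated for 24 h in 10% serum and moved to 4% serum, and no group was left without a transfected oligonucleotide. The series text frames the question as the changes in RNA levels that go with more NEAT1_2, the long NEAT1 transcript, and more paraspeckles.

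Glycolysis splits glucose into pyruvate and yields ATP without oxygen. Glucose enters through transporters of the SLC2A family, a chain of enzymes from hexokinase to pyruvate kinase acts on it, and lactate dehydrogenase turns the pyruvate into lactate. Oxygen-sensing prolyl hydroxylases mark the factors HIF1A and EPAS1 for destruction, and when oxygen is scarce these factors accumulate and raise transcription of many of the genes described here. Neuroblastoma cells with amplified MYCN are known for high levels of glycolytic enzymes.

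Normalized counts summed to 29.57 to 33.26 M per library, and that sum over the worth of a single read was 29.1 to 31.8 M. NEAT1 stood at 4853, 4198, 3912 and 4083 normalized counts in BPS2, at 2379.9, 2150.1, 2150.0 and 1414 in BPS1, and at 6926, 7021, 7074 and 6494 in control. The gene row does not separate NEAT1_2 from the short transcript, so it does not check the labels. All 13 adrenergic neuroblastoma markers averaged at least 10 normalized counts in each group, while 0 of 5 immune markers did. So did 6 of 7 fibroblast and 3 of 5 epithelial markers in each group. Of 4 endothelial markers, 2 did in BPS2 and BPS1 and 3 in control. This level alone therefore does not tell the cell types apart. Nothing in the labels says that a group's libraries come from different cultures, and p-values therefore cover the spread of these libraries alone, which could be technical.

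The genes described here also showed that 2 libraries, BPS1 replicate 4 and control replicate 1, lay away from the other 10. Of the 33 tested, 18 were higher and 9 lower in BPS1 replicate 4 than in all 3 other BPS1 libraries, which is 54.5% and 27.3% of them, against 40.4% above and 36.5% below over all genes tested. In control replicate 1, 15 were higher and 8 lower than in all 3 other control libraries, or 45.5% and 24.2%, against 35.0% and 33.8% over all genes tested. In both libraries 21 genes lay outside the others in the same direction, and 0 lay outside in opposite directions. The matching shares over all genes tested were not computed, so these 2 counts do not show a trait of the members. The sum over the 17 glycolytic enzymes was 1.34% of all normalized counts in BPS1 replicate 4 and 1.30% in control replicate 1, against 1.08% to 1.22% in the other 10. Without GAPDH these shares were 0.758% and 0.725%, against 0.637% to 0.716%, so control replicate 1 was then little apart. The median deviation of the members from their gene medians did not set the pair apart. It was 0.0353 and 0.0352 on the log2 scale, against 0.0744 and 0.0482 in BPS2 replicates 3 and 2. The deviation of a library from the gene's median rose with transcript GC content most in the same pair (Spearman's rho across genes, which are not independent, of 0.348 and 0.230). Control replicate 1 was little apart in this, as BPS2 replicates 3 and 2 had 0.207 and 0.169, and control replicate 3 had -0.219. The part of GC content in the shift of the members was not tested. Median GC content was 53.95% over the members that had a value and 49.1% over the genes tested. Calls that change when both libraries are left out are given with and without them. The 2 libraries were picked from these same data, so adjusted p values without them are descriptive only.

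**Figure D1:**
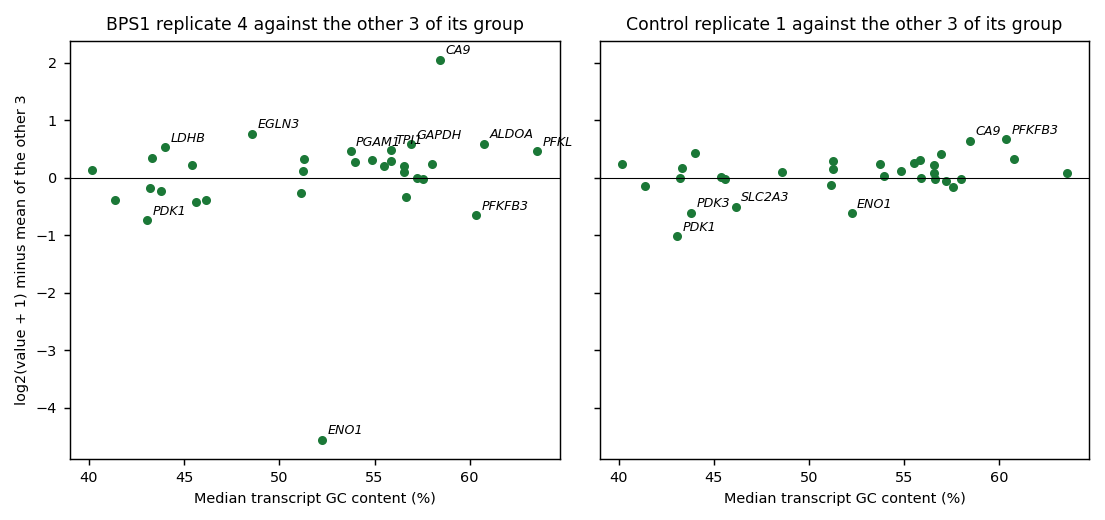
Shift of each tested member with a GC value in BPS1 replicate 4 (left) and control replicate 1 (right) against the mean of the other 3 libraries of its group, on the log2(value + 1) scale (vertical axis), by the median GC content of its transcripts in percent (horizontal axis). GPI was tested but has no GC value and is not drawn, and its shifts are -1.225 (left) and -1.337 (right). Most enzymes with abundant RNA lie above 0 in both panels, PDK1 lies below 0 in both, and ENO1 lies 4.55 below the others in BPS1 replicate 4.

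Levels per length spanned several orders of magnitude among the members. GAPDH, the glyceraldehyde phosphate dehydrogenase, had the highest level, at 81066 ± 3413 normalized counts per kb of its principal transcript in BPS2, 77942 ± 17232 in BPS1 and 80213 ± 12393 in control (SD, n = 4 each). Lactate dehydrogenase B (LDHB), triose phosphate isomerase (TPI1), aldolase A (ALDOA) and pyruvate kinase (PKM) followed. LDHA, the lactate dehydrogenase subunit that low oxygen induces, lay at 5820 ± 97.5 per kb in BPS2, 6738 ± 555 in BPS1 and 5441 ± 104 in control. CA9 and ADM, which low oxygen induces strongly in other cells, were near the floor of the table, unlike VEGFA, BNIP3 and LDHA. CA9, a carbonic anhydrase, averaged 11.1 ± 4.99 normalized counts in BPS2, 9.03 ± 8.79 in BPS1 and 10.0 ± 4.82 in control, and ADM averaged 2.52 ± 3.05, 4.04 ± 3.16 and 3.57 ± 1.65 in BPS2, BPS1 and control. The transporter gene SLC2A3 was as low, between 2.94 and 24.2 in the 12 libraries. Its pseudogene SLC2A3P1 held more than the gene, with a mean of 338.7 and a range of 55.7 to 563, so reads of the pair may have been split and the SLC2A3 value is uncertain.

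**Figure D2:**
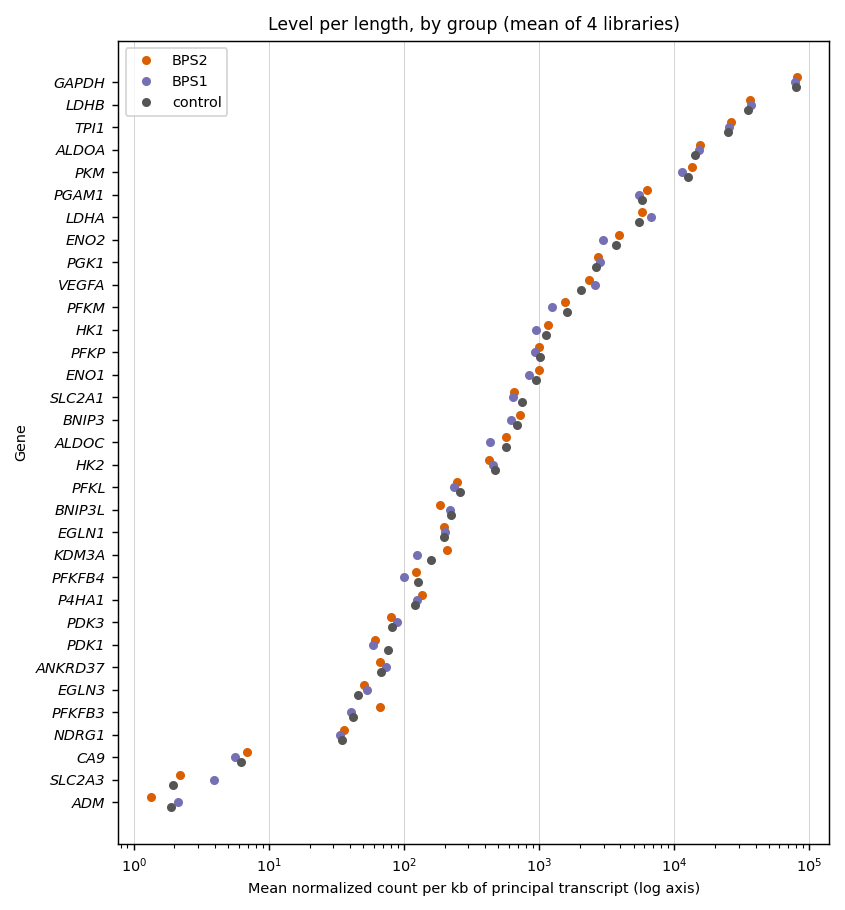
Mean normalized count per kb of the principal transcript (horizontal, log axis) for the 33 members with a transcript length, by group (mean of 4 libraries; BPS2 orange, BPS1 violet, control grey). GAPDH is highest at about 80213 per kb in control, and ADM, SLC2A3 and CA9 are lowest, under 7 per kb in every group.

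The values of the 4 members with the highest normalized counts show the 2 libraries that stood apart. GAPDH had 142630.0, 153497, 156911 and 154953 in BPS2, 129749.5, 127801, 132496 and 194521.5 in BPS1, and 184465, 145425, 138267 and 133442 in control. LDHB had 54165, 55613, 55978 and 56633 in BPS2, 50099.7, 51055, 52519 and 73799 in BPS1, and 67078, 52243, 50416 and 47791 in control. TPI1 had 29329, 32917, 34016 and 32353 in BPS2, 28827, 28399, 28043 and 39809 in BPS1, and 35485, 30945, 28857 and 26762 in control. For these 3 genes the fourth BPS1 library was the highest of all 12 and the first control library the second highest, and none was called in any comparison of all 12 libraries. PKM, the pyruvate kinase, had 36997, 35844, 36012 and 36968 in BPS2, 30180.4, 30398, 30511 and 32429 in BPS1, and 35739, 34359, 33165 and 34047 in control, so its 4 BPS1 libraries were the lowest of the 12.

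**Figure D3:**
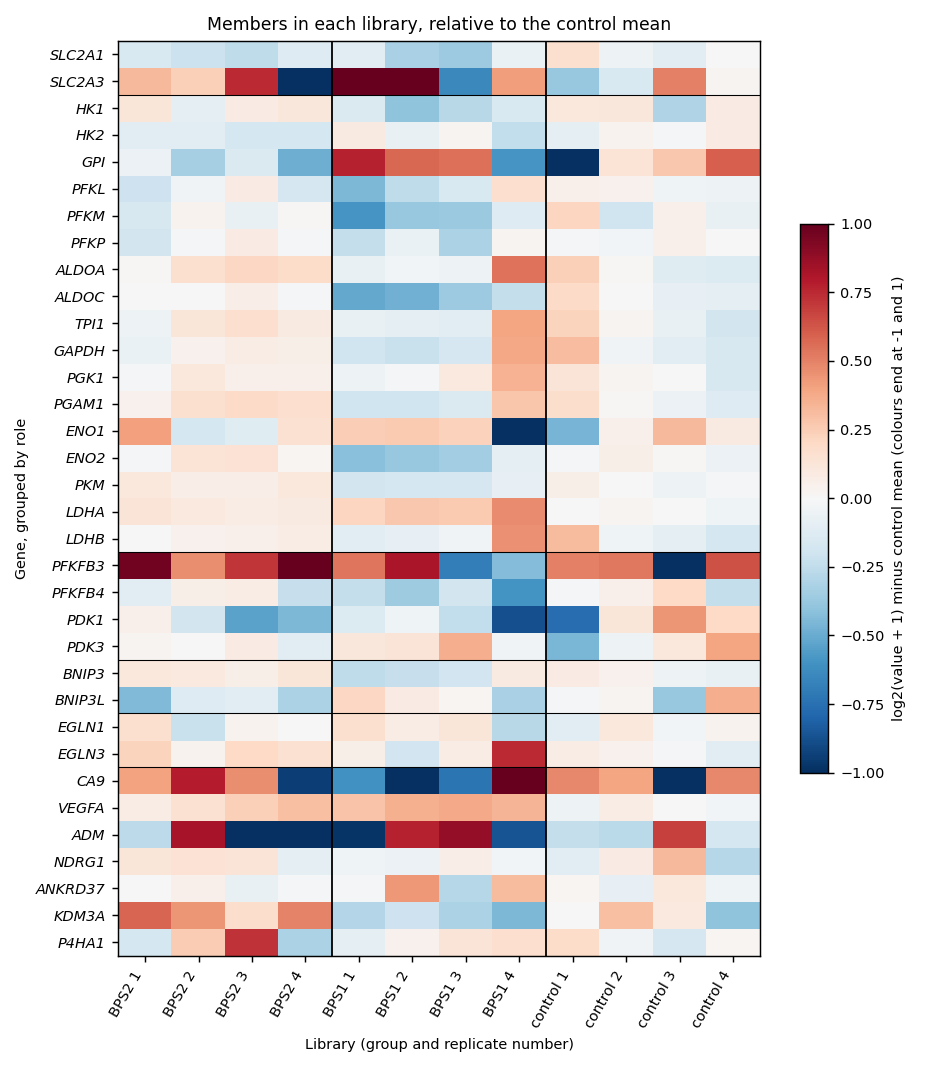
Each member (rows, grouped by role) in each of the 12 libraries (columns, BPS2, BPS1 and control), as log2(value + 1) minus the mean of the 4 control libraries; colours end at -1 and 1. ALDOC and ENO2 are below the control mean in every BPS1 library, KDM3A is above it in every BPS2 library, and BPS1 replicate 4 differs from the other BPS1 libraries in most enzymes.

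In BPS1 against control, 5 of the 33 tested genes passed limma's test at an adjusted p under 0.05, which is 15.2% of them, against 8.60% of all 20454 genes (4.29% higher, 4.32% lower). Aldolase C (ALDOC), neuron-specific enolase (ENO2) and the muscle-type phosphofructokinase (PFKM) were lower. LDHA and the vascular growth factor gene VEGFA were higher. The median log2 fold change over the 33 genes was -0.05, and all genes tested had a median of -0.00036. By role, 4 of the 17 glycolytic enzymes passed (1 higher, 3 lower), as did 1 of the 6 tested genes of the mixed hypoxia-induced group (higher). Among the 2 glucose transporters, the 4 kinases, the 2 mitophagy receptors and the 2 prolyl hydroxylases, 0 passed, although SLC2A1 and PFKFB4 had an unadjusted p under 0.05. Over the 33 genes, 10 had an unadjusted p under 0.05, 8 of them lower and 2 higher. The share of all genes at an unadjusted p under 0.05 was not computed, here or for the other unadjusted counts below. These counts and their directions therefore do not show a trait of the members.

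ALDOC is the aldolase of brain and splits fructose bisphosphate, like the more widespread ALDOA. It had 1125, 1126, 1176 and 1117 normalized counts in BPS2, 790.2, 806, 875 and 952 in BPS1, and 1284, 1119.7, 1061 and 1051 in control. All 4 BPS1 libraries were below all libraries of both other groups. The log2 fold change of BPS1 against control was -0.40 ± 0.09 (SE; adjusted p 0.0116), and the call was kept when any 1 library was left out, though not when only BPS1 and control were fitted (adjusted p 0.0578). ALDOA had a log2 fold change of 0.10 ± 0.13 in BPS1 against control (adjusted p 0.720). Per length, ALDOC made up 3.57% ± 0.196 of the 2 aldolases in BPS2, 2.81% ± 0.361 in BPS1 and 3.89% ± 0.109 in control (SD, n = 4 each), a ratio computed after the values were seen and not tested.

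ENO2, the enolase isoform of neurons and neuroendocrine cells, had 10364, 11470.1, 11568 and 10584 normalized counts in BPS2. It had 7809, 8030.4, 8218 and 9785 in BPS1, and 10379.9, 10851, 10536 and 10019 in control. The BPS1 libraries did not overlap with either other group, and the highest of them was replicate 4. The log2 fold change of BPS1 against control was -0.31 ± 0.07 (adjusted p 0.0212). The call was lost without BPS1 replicate 1, 2 or 3 or control replicate 2 or 3, with adjusted p up to 0.0674, and it was lost in a fit of only BPS1 and control (0.0742) and with no filter on low values (0.0569). Without both BPS1 replicate 4 and control replicate 1 the log2 fold change was -0.38 (adjusted p 0.00058).

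PFKM encodes the phosphofructokinase of muscle, which catalyses the step that commits sugar to glycolysis. It had 4591, 5281, 4870.2 and 5184 normalized counts in BPS2, 3421, 3957, 3964 and 4699 in BPS1, and 5959.9, 4489, 5338 and 4889 in control. The BPS1 and control libraries overlapped through BPS1 replicate 4. The log2 fold change of BPS1 against control was -0.37 ± 0.10 (adjusted p 0.0465), the closest to the threshold of the 5. The call was lost on leaving out any library other than BPS1 replicate 4 or control replicate 2, with adjusted p up to 0.113, in a fit of only BPS1 and control (0.123) and with no filter (0.0812). Without both BPS1 replicate 4 and control replicate 1 it was -0.38 (adjusted p 0.0099). The liver and platelet isoforms PFKL and PFKP had log2 fold changes of -0.17 ± 0.12 and -0.15 ± 0.08 in BPS1 against control and were not called.

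LDHA had 14380.1, 14032, 13812 and 14020.0 normalized counts in BPS2, 15239, 15858, 15771 and 18247 in BPS1, and 13204, 13380.3, 13215 and 12788 in control. The 4 BPS1 libraries were the highest of the 12, and the groups did not overlap. The log2 fold change of BPS1 against control was 0.30 ± 0.06 (adjusted p 0.00712), and without BPS1 replicate 4 and control replicate 1 it was 0.25 (adjusted p 0.000576). LDHB, whose subunit favours the reaction from lactate to pyruvate, had a log2 fold change of 0.06 ± 0.12 in BPS1 against control (adjusted p 0.835). Per length, LDHA stood at 0.161 ± 0.00552 of LDHB in BPS2, 0.185 ± 0.0186 in BPS1 and 0.156 ± 0.0209 in control (SD, n = 4 each). That ratio was computed after the values were seen, and the lowest BPS1 library, at 0.157, lay within the control range of 0.125 to 0.170.

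VEGFA encodes a growth factor for blood vessels and is a standard target of the HIF factors. It had 2572, 2726, 2886 and 3015 normalized counts in BPS2, 2979, 3129.7, 3188 and 3094 in BPS1, and 2366, 2579.7, 2444 and 2402 in control. All BPS1 libraries were above all control libraries, and the BPS2 libraries lay between and overlapped both. The log2 fold change of BPS1 against control was 0.34 ± 0.07 (adjusted p 0.00621). The calls of LDHA and VEGFA were kept when any 1 library was left out and when both BPS1 replicate 4 and control replicate 1 were.

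**Figure D4:**
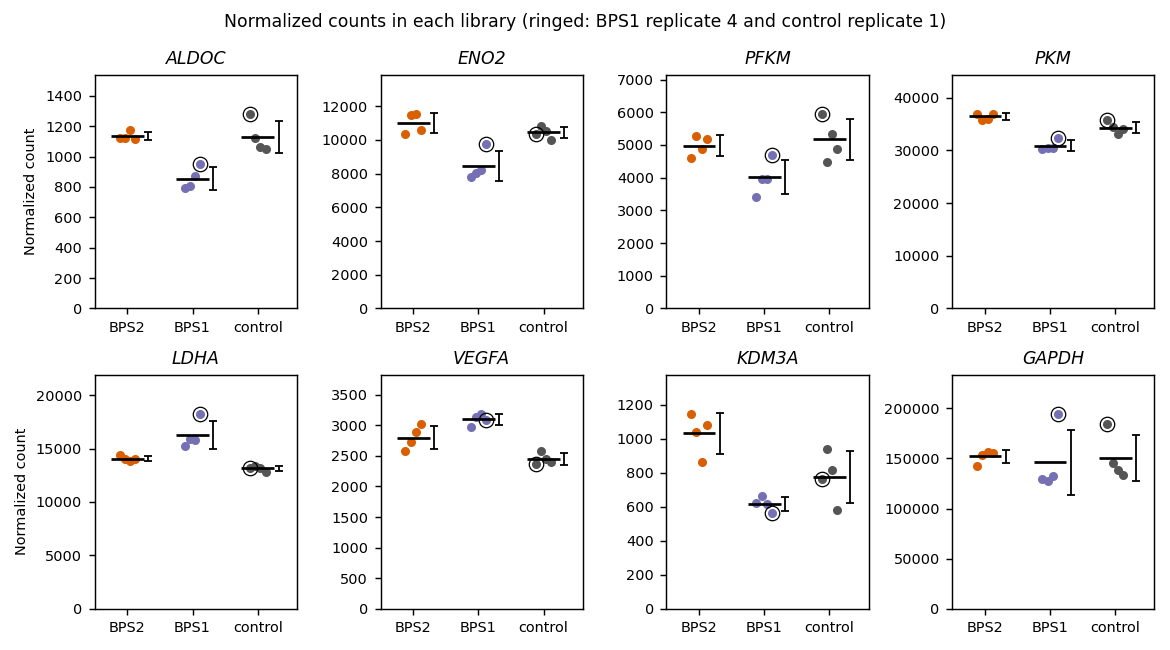
Normalized counts (vertical axes, each from 0) of the 7 members called in any comparison and of GAPDH, in BPS2, BPS1 and control; points are libraries, horizontal lines the mean of 4 and bars its SD, and rings mark BPS1 replicate 4 and control replicate 1. The 4 BPS1 libraries are the lowest for ALDOC, ENO2 and PKM and the highest for LDHA, and for GAPDH the ringed libraries are the 2 highest.

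In BPS2 against control, 0 of the 33 tested genes passed limma's test, against 1.21% of all genes (0.821% higher, 0.386% lower), and 3 had an unadjusted p under 0.05. These were SLC2A1 at -0.19 ± 0.08, VEGFA at 0.19 ± 0.07 and KDM3A at 0.42 ± 0.14 on the log2 scale, with adjusted p of 0.426, 0.242 and 0.208. The median log2 fold change was 0.06 over the 33 genes and 0.00249 over all genes tested. No other tool was used for this test. ALDOC and ENO2, both lower in BPS1, had log2 fold changes of 0.01 (95% interval -0.17 to 0.20) and 0.07 (-0.09 to 0.23) in BPS2 against control. The comparisons of BPS2 and BPS1 with control share the 4 control libraries.

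This count depended on the libraries that stood apart, which were picked from these same data. Without BPS1 replicate 4 and control replicate 1, 7 members passed in BPS2 against control, while the share of all 20161 genes then tested that passed was 9.54% (5.78% higher, 3.76% lower). The 5 enzymes ALDOA, PGAM1, LDHB, GAPDH and PKM were higher by small amounts, with log2 fold changes of 0.22, 0.20, 0.15, 0.13 and 0.11 in that order (adjusted p 0.0174 to 0.0490). GPI, the glucose phosphate isomerase, was lower at -0.59 (adjusted p 0.0145), and so was PDK1, a kinase that shuts off pyruvate dehydrogenase, at -0.53 (adjusted p 0.0295). With all 12 libraries the same genes had log2 fold changes between -0.28 and 0.14 in BPS2 against control. Leaving out any 1 library alone gave 0 members.

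In BPS2 against BPS1, 4 of the 33 genes passed, 12.1% of them, against 3.93% of all genes, and all 4 were higher in BPS2, against 2.30% of all genes called higher and 1.63% called lower. They were ALDOC, ENO2, PKM and KDM3A. The median log2 fold change was 0.06 over the 33 genes and -0.00258 over all genes tested. ALDOC was higher by 0.41 ± 0.09 (adjusted p 0.0162), a call lost without BPS1 replicate 1 or 2 or BPS2 replicate 3 (adjusted p up to 0.0573). ENO2 was higher by 0.38 ± 0.07 (adjusted p 0.0113), and that call was kept without any 1 library. PKM was higher by 0.24 ± 0.05 (adjusted p 0.0120), with adjusted p 0.0502 without BPS2 replicate 4, 0.0908 after quantile scaling and 0.117 with no filter on low values. The BPS2 and BPS1 libraries did not overlap in any of the 3 enzymes, which were picked by this same test.

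KDM3A, a histone demethylase gene that the HIF factors induce, had the largest of the 4 differences. It had 1147, 1038, 862 and 1079 normalized counts in BPS2, 625, 664, 615 and 561 in BPS1, and 765, 943, 819 and 579 in control. The BPS2 and BPS1 libraries did not overlap, and the control libraries lay across the gap between them. The log2 fold change of BPS2 against BPS1 was 0.74 ± 0.14 (1.67-fold, adjusted p 0.00853), and it was 0.69 (adjusted p 0.0084) without BPS1 replicate 4 and control replicate 1. Against control neither group was called with all libraries, at 0.42 ± 0.14 in BPS2 and -0.31 ± 0.14 in BPS1 (adjusted p 0.208 and 0.192). Without control replicate 4 alone, KDM3A passed as lower in BPS1 against control (adjusted p 0.0386).

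LDHA had a log2 fold change of -0.21 ± 0.06 in BPS2 against BPS1 and did not pass the test (adjusted p 0.0758), although the libraries did not overlap. It passed there as lower after quantile scaling, with library weights and without BPS1 replicate 4 alone (adjusted p 0.0366 in the last). HK1, the hexokinase of most tissues, had a log2 fold change of 0.30 ± 0.10 in BPS2 against BPS1 (adjusted p 0.124), and BNIP3, a receptor that marks mitochondria for removal, 0.24 ± 0.08 (adjusted p 0.126). Without control replicate 3 alone, HK1 passed as lower in BPS1 against control (adjusted p 0.0331). Without BPS1 replicate 4 and control replicate 1, 14 members passed in BPS2 against BPS1, 12 of them higher, while 17.4% of all genes passed (10.5% higher, 6.88% lower). Besides the 4 above these were HK1, PFKM, ALDOA, TPI1, GAPDH, PGAM1, LDHB and BNIP3 as higher, with log2 fold changes of 0.12 to 0.40, and GPI (-0.89) and LDHA (-0.15) as lower. In BPS1 against control the same omission added PKM at -0.16 (adjusted p 0.00295) and BNIP3 at -0.20 (adjusted p 0.0258), so that 7 members passed, while 13.7% of all genes did (6.42% higher, 7.33% lower).

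**Figure D5:**
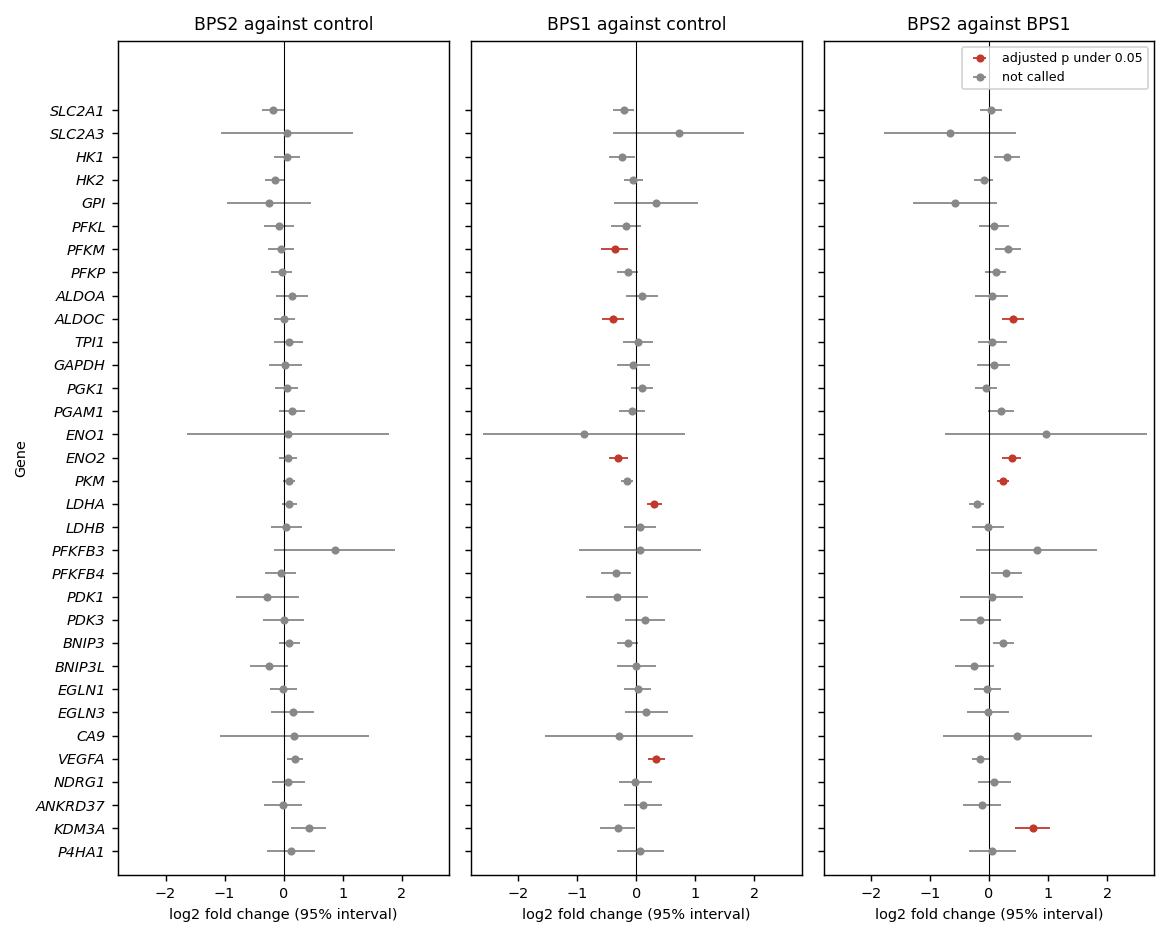
Log2 fold change of the 33 tested members with its 95% interval (horizontal) in BPS2 against control, BPS1 against control and BPS2 against BPS1; red marks an adjusted p under 0.05 over all genes tested. In the first panel 0 genes are red, in the second 5 and in the third 4, and ENO1, PFKFB3, CA9 and SLC2A3 have the widest intervals.

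The letters that the HIF factors bind, ACGTG or GCGTG, were looked for on both strands of the 250 bases before each transcription start in RefSeq (build GRCh38.p14). The members had 53 such windows for 30 genes, and BNIP3L, SLC2A3, NDRG1 and VEGFA had no entry. Either motif was in 32 of the 53 windows, or 60.4%, against 43.2% of all 35116 windows of the same length. ACGTG alone was in 41.5% against 18.5%, and GCGTG in 32.1% against 32.2%. The palindrome CACGTG, which overlaps ACGTG and is also the E-box that MYC proteins bind, was in 15.1% against 6.34%. Of the 30 genes, 25 had either motif in at least 1 window, and among the called genes PKM had none. This count per gene was not made over all genes, and genes with several starts had more windows, some of them overlapping. Some members were chosen because low oxygen is known to induce them, so the shares are no independent result. The stretches below are shown because they are the matches before genes that passed the test. They run 5′ to 3′ on the gene's strand with 10 bases on each side, capitals mark the matched letters, and CACGT or CACGC is the motif on the other strand. The same letters precede genes that were higher (LDHA) and lower (ALDOC, ENO2) in BPS1, and a match is a description and not a bound site.
LDHA, chr11:18394368-18394393 (+), 185 bases before the start: actcccagcgCACGTGgagcagtctg
LDHA, chr11:18394466-18394491 (+), 87 bases before: gcccgactcaCACGTGggttcccgCA
LDHA, chr11:18394480-18394504 (+), 73 bases before, which begins in the second stretch: TGggttcccgCACGTccgccggccc
LDHA, chr11:18396218-18396242 (+), 123 bases before another of its starts: tgcgcatgcgCACGCgcacaagttc
ALDOC, chr17:28577120-28577145 (-), 240 bases before: aagtgcccggCACGTGgtaaagggat
ALDOC, chr17:28576989-28577013 (-), 108 bases before: gcctctgaggGCGTGgtcttgcccc
ALDOC, chr17:28576926-28576950 (-), 45 bases before: gcatgcaggcCACGCccccggagga
ALDOC, chr17:28576909-28576933 (-), 28 bases before: ccggaggagtCACGTagctctgcga
ENO2, chr12:6914452-6914476 (+), 118 bases before: ccgcgctcgtACGTGcgcctccgcc
KDM3A, chr2:86441335-86441359 (+), 26 bases before: gggaggctgtGCGTGtcttgtgaga
PFKM, chr12:48105349-48105373 (+), 122 bases before 1 of its starts: atccagagatCACGTtagggtacac

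The remaining members were not called with all 12 libraries. SLC2A1, the main glucose transporter of growing cells, ranged from 2302 to 2509 normalized counts in BPS2, from 2130.1 to 2619 in BPS1 and from 2536 to 3067 in control. Its log2 fold change was -0.22 ± 0.08 in BPS1 against control (adjusted p 0.142). Without BPS1 replicate 4 alone it passed as lower. HK2, the hexokinase that low oxygen induces, had log2 fold changes between -0.14 and -0.05 in the 3 comparisons. PGK1 and PGAM1, which act between GAPDH and enolase, had -0.07 to 0.21.

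ENO1, the general enolase, and GPI had rows that behaved unlike the other enzymes. ENO1 had 2905, 1941, 2017 and 2439 normalized counts in BPS2, 2597, 2625, 2574 and 109.8 in BPS1, and 1588, 2274, 2743 and 2327 in control. BPS1 replicate 4 was the lowest and control replicate 1 the second lowest, and its pseudogene ENO1P4 was at 0 in the same libraries. Its log2 fold change in BPS1 against control was -0.89 (95% interval -2.60 to 0.82), and 0.09 without BPS1 replicate 4 and control replicate 1. GPI had 1512, 1247, 1421 and 1123 in BPS2, 2687, 2342, 2299.6 and 1042 in BPS1, and 784.5, 1729, 1894 and 2381 in control. The row of GPI carries an identifier that GENCODE release 29 does not hold, so its value may cover only part of the gene's reads. Both rows are uncertain for these reasons, as is that of BNIP3, whose pseudogene rows summed to 10.9% of the gene's own value.

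PFKFB3 and PFKFB4 set the level of fructose 2,6-bisphosphate, which activates phosphofructokinase. PFKFB3 ranged from 219 to 393 normalized counts in BPS2, from 97.8 to 279.7 in BPS1 and from 49.3 to 247 in control, and its log2 fold change of 0.86 ± 0.48 in BPS2 against control had an adjusted p of 0.542. PFKFB4 had -0.34 ± 0.12 in BPS1 against control (adjusted p 0.104). PDK1 ranged from 713 to 1069 in BPS2, from 559.6 to 999 in BPS1 and from 608 to 1400.1 in control, with its lowest values in BPS1 replicate 4 and control replicate 1. PDK3, a second kinase of pyruvate dehydrogenase, had log2 fold changes between -0.15 and 0.15.

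Among the low-oxygen genes outside glycolysis, BNIP3 ranged from 2028 to 2119 normalized counts in BPS2, from 1631 to 2069.8 in BPS1 and from 1848 to 2069.6 in control. Its related receptor BNIP3L had log2 fold changes of -0.25 ± 0.15 in BPS2 against control and -0.00311 ± 0.152 in BPS1 against control. The prolyl hydroxylase genes EGLN1 and EGLN3, which limit the HIF factors and are themselves induced by low oxygen, had log2 fold changes between -0.03 and 0.17. NDRG1, a stress-response gene, ANKRD37, an ankyrin-repeat gene, and P4HA1, which modifies collagen, had log2 fold changes between -0.12 and 0.12.

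Of 12 HIF factors and their regulators, 0 passed in any comparison by limma's test on all 12 libraries, with 1 at an unadjusted p under 0.05 in BPS2 against control, 1 in BPS1 against control and 0 in BPS2 against BPS1. HIF1A ranged from 12697 to 14307 normalized counts in BPS2, from 11271 to 13337 in BPS1 and from 9636 to 12399 in control. Its log2 fold change was 0.26 ± 0.08 in BPS2 against control (adjusted p 0.205) and 0.17 ± 0.08 in BPS1 against control (adjusted p 0.234). HIF1A passed as higher in both when BPS1 replicate 4 and control replicate 1 were left out, at 0.19 (adjusted p 0.0268) in BPS2 and 0.16 (adjusted p 0.0496) in BPS1, and it also passed in both with library weights and with the GC correction. VHL, which carries HIF factors to destruction, had a log2 fold change of -0.28 in BPS1 against control (adjusted p 0.059). It passed there as lower with a minimum of 50, with library weights and with the GC correction (adjusted p down to 0.0355). VHL did not pass there when any 1 library was left out. EPAS1, the HIF2 alpha subunit, had log2 fold changes between -0.08 and 0.07. Of the 7 pentose phosphate enzymes tested, 0 passed in any comparison, with 0, 1 and 1 at an unadjusted p under 0.05 in BPS2 against control, BPS1 against control and BPS2 against BPS1.

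Of 37 other glycolysis and pyruvate genes tested, 0 passed in BPS2 against control (2 at an unadjusted p under 0.05), 3 in BPS1 against control and 1 in BPS2 against BPS1, or 0%, 8.11% and 2.70% of them, against 1.21%, 8.60% and 3.93% of all genes. HK3, a hexokinase of blood cells, had 23.2, 36.9, 39.3 and 32.3 normalized counts in BPS2, 80.8, 68.2, 67.6 and 111 in BPS1, and 41.5, 23.5, 39.6 and 29.1 in control. Its log2 fold change was 1.27 ± 0.24 in BPS1 against control (adjusted p 0.00499) and -1.29 ± 0.24 in BPS2 against BPS1 (adjusted p 0.00798). The transporter SLC2A6 was higher (0.42 ± 0.11, adjusted p 0.0358) and FBP1, which runs the phosphofructokinase step in reverse, lower (-0.64 ± 0.18, adjusted p 0.0486) in BPS1 against control. Both calls were lost on leaving out single libraries, with adjusted p up to 0.0992 for SLC2A6 and 0.126 for FBP1. Without BPS1 replicate 4 and control replicate 1, FBP1 did not pass in BPS1 against control (adjusted p 0.0814), and SLC2A6 passed in BPS2 against control as well, at 0.28 (adjusted p 0.0386).

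Of 34 other hypoxia-induced genes tested, 2 were higher in BPS2 against control, 1 higher and 2 lower in BPS1 against control, and 2 higher in BPS2 against BPS1. These are 5.88%, 8.82% and 5.88% of the list, against 1.21%, 8.60% and 3.93% of all genes. IGFBP3, a binding protein of insulin-like growth factors, was higher in both, by 0.99 ± 0.13 in BPS2 (adjusted p 0.00297) and 1.02 ± 0.13 in BPS1 (adjusted p 0.0005) against the same control libraries. GBE1, the glycogen branching enzyme, had 558, 578, 629.8 and 553 normalized counts in BPS2, 377, 415, 389 and 397 in BPS1, and 549, 551, 627 and 578 in control. It was lower by 0.55 ± 0.08 in BPS1 against control (adjusted p 0.00104) and higher by 0.55 ± 0.08 in BPS2 against BPS1 (adjusted p 0.00163). STC1, a secreted hormone, had -0.73 ± 0.17 in BPS1 against control (adjusted p 0.0160, and 0.0549 without control replicate 2) and -0.64 ± 0.17 in BPS2 against control (adjusted p 0.0990). HMOX1, heme oxygenase, was higher in BPS2 against control at 0.76 ± 0.15 (adjusted p 0.0258, and up to 0.103 without 1 library). DDIT4, an inhibitor of mTORC1, was higher in BPS2 against BPS1 at 0.77 ± 0.11 (adjusted p 0.00158), and had 0.49 in BPS2 against control (adjusted p 0.0529). Without BPS1 replicate 4 and control replicate 1, 2 further differences against control passed in BPS2, STC1 as lower at -0.71 (adjusted p 0.0134) and DDIT4 as higher at 0.53 (adjusted p 0.00652). HMOX1 then passed as higher in BPS2 against BPS1 too, at 0.55 (adjusted p 0.00428), against 0.41 (adjusted p 0.161) with all libraries.

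The 13 mitochondrially encoded genes are needed by oxidative metabolism and also move with RNA quality. Of them, 2 were lower in BPS2 against control, 6 were lower in BPS1 against control and 2 were higher in BPS2 against BPS1. These are 15.4%, 46.2% and 15.4% of the list, against 1.21%, 8.60% and 3.93% of all genes. The 13 genes made up 7.10% to 7.38% of the normalized counts in BPS2, 6.46% to 6.83% in BPS1 and 7.07% to 7.99% in control. Of the 13 adrenergic markers, 2 were lower in BPS2 against control and 3 were higher in BPS2 against BPS1. In BPS1 against control, 6 were lower and 2 higher. Those passing were 15.4% in BPS2 against control, 61.5% in BPS1 against control and 23.1% in BPS2 against BPS1, against the same shares of all genes. The summed level of the adrenergic markers was 269628 to 286358 in BPS2, 230555 to 295622 in BPS1 and 295524 to 348674 in control. Markers of other cell types stayed far below that, at 3142 to 4365 for 7 fibroblast markers, 186 to 299.9 for 5 epithelial markers, 100.5 to 235 for 4 endothelial markers and 14.8 to 42.8 for 5 immune markers over all libraries, and KDR was at 0 in BPS2 and BPS1. Of the 6 fibroblast markers tested, 1 was higher in BPS2 against control, where the median log2 fold change of the list was 0.29, and 0 passed in the other comparisons by limma's test, with 1 in BPS1 against control and 2 in BPS2 against BPS1 at an unadjusted p under 0.05. In bulk RNA, fewer cells of a type and less RNA per cell cannot be told apart, and the part of these shifts in the values of ALDOC and ENO2 was not tested.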

How the data were processed

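Tools named in the submitters' processing notes are Salmon 0.8.2, FastQC 0.11.7 and DESeq2, on GRCh38; how transcript values were summed to genes is not given in the sources used here. Per the labels, reads were single 100-base reads of ribosomal RNA-depleted total RNA, with a stated mean of 25 M per sample. The values deposited are signal values, namely normalized counts, 1 for each gene in each library. Recomputed median-of-ratios factors were the same in every library, 1.008. Only 67.8% to 71.3% of low values (up to 20 reads' worth) were whole multiples of the value of 1 read to within 0.001 of a read, so reads were not recovered and no count test was run. Between libraries of a group, chi-square per gene was 6.66 to 64.7, and each library was counted once.

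Values were taken as log2(value + 1), which understates changes of low genes. Genes at 10 or more in at least 4 libraries entered a single linear model in limma 3.58.1 (R 4.3.3; trended eBayes) that held all 12 libraries and no term but group. Genes passed at an adjusted p under 0.05 (two-sided, Benjamini-Hochberg over all 20454 tested). NEAT1 gave an exact permutation p of 0.0286 in each comparison, the smallest that 70 arrangements allow. The fit was also run on simulated data with independent noise for each gene and library. Those data held no library-wide shift, so they do not test calls that depend on BPS1 replicate 4 and control replicate 1. Positions, GC content and lengths (the longest principal transcript) come from GENCODE release 29, which holds 53405 of the 55771 identifiers. The BPS2 columns were matched by sample title, because their description field says KPAS; BPS1 replicate 3 has its column spelled BSP1.

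The members and lists were chosen with earlier results of these data known. Named genes were all members, NEAT1, 6 HIF factors or regulators, and up to 4 genes per further list with the smallest p; of these last only those that passed are given. Alternatives were pseudocounts of 0.5 and 5, a minimum of 50 or none, quantile or median-of-ratios scaling, library weights, robust variance, only the groups compared, a GC correction, the replicate number as a block, and the omission of libraries.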

Additional observations from a re-analysis of the deposited data

Results flagged for a closer look

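A library was marked where its gap to the nearest other library of its group took up more of the group's range than Dixon's 95% limit allows, which chance does in about 1 of 20 groups (5%). Of 102 groups of members, 14 were marked, and 8 of these were in BPS1 replicate 4. In that library ALDOA (32728), TPI1 (39809), GAPDH (194521.5), PGAM1 (12672), PKM (32429), LDHB (73799) and CA9 (22.2 normalized counts) were above the other BPS1 libraries by more than those differed among themselves, and ENO1 (109.8) was below them. Outside the members, the same library was high for SLC2A6 (1358) and low for HIF1A (11271) and HIF1AN (2406), the factor-inhibiting hydroxylase. In control replicate 3, HK1 (3267), PFKFB3 (49.3) and CA9 (2.82) were below the other control libraries and ADM (6.05) above them. In BPS2, ALDOC was high in replicate 3 (1176), NDRG1 low in replicate 4 (120.03) and DDIT4 low in replicate 1 (1250.1). VHL, which carries HIF factors to destruction, was high in control replicate 4 (1998).

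Other genes were marked because the effects of BPS2 and BPS1, each against control, differed by limma's test of BPS2 against BPS1. On the log2 scale the BPS2 effect minus the BPS1 effect was 0.412 for ALDOC, 0.382 for ENO2, 0.240 for PKM, 0.737 for KDM3A, 0.553 for GBE1, 0.772 for DDIT4, -1.29 for HK3 and 1.10 for NEAT1. Its adjusted p values from limma were 0.0162, 0.0113, 0.0120, 0.00853, 0.00163, 0.00158, 0.00798 and 0.000567 in that order. In each gene every BPS2 library lay on the same side of every BPS1 library. The genes were picked by this test on the same libraries, so the separation adds no support. The share of all genes without overlap was not computed, here or where overlap is given above.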

How the results depend on the processing

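Genes and members called are given here for BPS2 against control, BPS1 against control and BPS2 against BPS1 in that order; with all libraries they were 247 and 0, 1760 and 5, and 803 and 4. LDHB alone changed sign with a call on 1 side, at -0.01 in BPS2 against BPS1 with all libraries (not called) and 0.118 without BPS1 replicate 4 and control replicate 1 (called). Leaving out 1 library at a time gave 113 to 535, 1103 to 2359 and 471 to 1756 genes, and 0 to 0, 3 to 8 and 3 to 8 members. Leaving out BPS1 replicate 4 and control replicate 1 together gave 1923, 2772 and 3498 genes, with 7 members in BPS2 against control and 14 in BPS2 against BPS1. Library weights gave 1296, 3382 and 3626 genes, with 8 members in BPS1 against control and 11 in BPS2 against BPS1. No filter on low values gave 3 members in BPS1 against control, and fitting only the 2 groups compared gave 907 genes and 2 members there. The cause was not tested. Other pseudocounts, a minimum of 50, the GC correction, robust variance and quantile or median-of-ratios scaling left every count within 1.5 times. The members behind a count could still change. After quantile scaling the 4 members in BPS2 against BPS1 were 3 higher and 1 lower, with PKM lost and LDHA gained.

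Libraries with the same replicate number did not deviate together (correlations of -0.272 to 0.103). The 2 libraries that stood apart carry different numbers and weigh on these correlations. The labels do not say whether a number marks a shared culture or day, and the correlations cannot exclude it. A replicate block gave 118, 1067 and 447 genes, with 3 members in BPS1 against control and 2 in BPS2 against BPS1. It took the adjusted p to 0.0621 for ENO2, 0.108 for PFKM, 0.0671 for SLC2A6 and 0.113 for FBP1 in BPS1 against control, to 0.0682 for ALDOC and 0.0623 for PKM in BPS2 against BPS1, and to 0.0932 for HMOX1 in BPS2 against control. With the GC correction the block gave 123 genes in BPS2 against control and 500 in BPS2 against BPS1.

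With 4 libraries a group, a member that misses the threshold is not shown to be unchanged. The rows of ENO1, SLC2A3 and BNIP3, which have expressed pseudogenes, and of GPI are uncertain. CA9, SLC2A3 and ADM lie near the lowest values the depth resolves.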
